A study of Mus musculus with 6 samples.

Results

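Expression of the nuclear genes for the mitochondrial respiratory chain and ATP synthase was followed through 3 stages of CD8 thymocyte development. The genes were those whose symbol begins with Ndufa, Ndufb, Ndufc, Ndufs, Ndufv, Uqcr, Atp5 or Cox4 to Cox8, together with Sdha, Sdhb, Sdhc, Sdhd and Cyc1. Of the 18193 genes with a probe of a single symbol, 91 met this definition, and 85 of them passed a filter on dim genes, a mean log2 intensity of at least 5.19. By function, 34 of the 91 encode subunits of complex I, 4 of complex II, 9 of complex III, 17 of complex IV and 17 of complex V, while 10 are assembly factors or relatives that are not structural subunits. Each gene was represented by the probe with the highest mean over the 6 arrays.

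The thymocytes came from N15 TCR tg+/+ RAG-2-/- mice of the H-2b haplotype. By these labels all 3 groups share a transgenic T cell receptor and the RAG-2-/- genotype. The Rag2 probe gave 137 and 193 in DP and 2.06 to 30.1 on the later arrays; its place relative to the deletion is unknown, so the probe cannot serve as a check of the genotype. Per the labels, 6 age- and sex-matched mice of 5 to 6 weeks supplied cells for a pair of independent experiments, and a cell sorter separated the stages by CD4 and CD8 staining. The 3 groups, with 2 arrays each, were double-positive (DP) cells with both coreceptors, CD4intCD8+ cells with intermediate CD4, and CD8 single-positive (CD8SP) cells. The labels do not tie an array to particular animals, so the p-values describe array-to-array spread, which may be technical.

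The respiratory chain sits in the inner mitochondrial membrane. Complex I takes electrons from NADH and complex II from succinate, complex III passes them through cytochrome c to complex IV, and complex IV hands them to oxygen. Complexes I, III and IV pump protons, and complex V, the ATP synthase, lets the protons return through a rotating ring of c subunits while its head makes ATP. Assembly factors help to build a complex and are absent from the finished enzyme. Most of the genes are expressed in all cells that respire, whereas some complex IV subunits exist in variants restricted to heart, muscle or testis.

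Values were linear intensities with array medians between 24.9 and 25.7. The ratio of 3' to 5' actin signal, a measure of RNA length, was 1.98 and 2.14 in DP cells, 2.37 and 3.47 at the CD4intCD8+ stage and 2.28 and 2.62 in CD8SP; it thus moved with the stage, and its part in the results below was not tested beyond a fit that holds it as a covariate. The 6 thymocyte markers, among them Cd3e, Thy1 and Cd8a, were bright, and their sum moved with the stage, at 18620.0 and 20090.0 in DP against 12100.0 to 14960.0 on the 4 later arrays. Of 4 markers of the DP stage, Rag1 went from 1046 and 1054 in DP to between 57.9 and 134 later, and Cd4, on which the cells were sorted, from 351 and 515 to between -68.6 and 11.8. Rag2 was lower later as well, whereas Ptcra was at 41.4 and 49.9 in DP and reached 119.9 and 111.5 on the later replicate 2 arrays.

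Markers of other cell types had low summed intensities, some of which moved with the stage. Myeloid markers (6 genes) summed to 161 and 192 in DP against 199 and 217 in CD8SP, with 186 and 219.5 in between. Epithelial markers (5 genes) summed to 134.8 and 143.5 in DP against 127 and 131 in CD8SP, and dendritic markers (4 genes) to 111 and 110.1 against 107 and 106. Erythroid markers (3 genes) were lowest at the CD4intCD8+ stage, at 83.6 and 61.9, against 123 and 109 in DP and 123 and 99.5 in CD8SP. B cell markers (5 genes) summed to between 95.4 and 238, highest on the CD8SP 1 array, and the natural killer marker Ncr1 lay between 14.2 and 51.6. The part of these markers in the results was not tested.

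From DP to CD4intCD8+, 11 respiratory chain genes rose and 0 fell, and 74 were not called (limma, adjusted p under 0.05 over all 10916 genes tested). The genes that rose were Ndufv2 and Ndufa12 of complex I, Cox6c and Ndufa4 of complex IV, Atp5e, Atp5g1, Atp5l and Atp5mpl of complex V, and the assembly factors Ndufaf4, Ndufaf6 and Ndufaf7. They were 12.9% of the 85 genes tested, beside 6.86% of all genes called higher, 4.84% called lower and 11.7% called in either direction. The median log2 change of the 85 genes was 0.19 (72 above 0), against 0.01 for all genes. In sorted populations, fewer cells of a type and less RNA per cell cannot be told apart. The numbers of the replicates were taken to pair the arrays (their shared deviations are given with the array medians). The actin ratio was higher on replicate 2 at each stage, and its part in these deviations was not tested. With the replicate number as a block, 26 genes rose and 1 fell (Cox7a2l). Of all genes, 23.5% were called with the block in either direction, 13.3% higher and 10.1% lower. Both CD4intCD8+ arrays lay above both DP arrays for 50 of the 85 genes and below them for 6, beside 30.8% and 27.9% of all genes.

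The count at this step depended on single arrays. It was 1 (Ndufaf4) without DP replicate 1, 0 without DP replicate 2, 3 without CD4intCD8+ replicate 1 and 2 without CD4intCD8+ replicate 2. Without either DP array, and without CD4intCD8+ replicate 2, the share of all genes called fell as well. Without CD4intCD8+ replicate 1 it did not. In each of these fits, with a lone array left in a stage, the share of respiratory chain genes called lay below that of all genes. The count of respiratory chain genes was 3 after median centring (3.53%, beside 11.1% of all genes). It was 3 without the intensity trend (3.53%, beside 7.34%) and 1 (Atp5mpl) with the actin ratio as a covariate (1.18%, beside 3.73%).

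From CD4intCD8+ to CD8SP, 0 of the 85 genes were called, and 0 with the replicate block, while 4 had an unadjusted limma p under 0.05 (0.119% of all genes were called at this step, 0.101% higher and 0.0183% lower, and 1049 had an unadjusted p under 0.05). With the block, 2.08% of all genes were called, 1.26% higher and 0.824% lower. The median log2 change was -0.05, with 29 genes above 0. Both CD8SP arrays lay above both CD4intCD8+ arrays for 8 genes and below them for 27, beside 20.2% and 18.6% of all genes. Over the whole span, CD8SP against DP, 17 genes rose, 2 fell and 66 were not called; the 17 are 20% of the genes tested, beside 11.5% of all genes called higher, 8.35% called lower and 19.8% called in either direction. The median was 0.13 with 62 genes above 0, against 0.01 for all genes. With the block, 22 rose and 6 fell, beside 30% of all genes called, 16.9% higher and 13.1% lower. Stages did not overlap for 40 genes with CD8SP higher and 9 with CD8SP lower, beside 32.4% and 29.1% of all genes. Both comparisons with DP use the same DP arrays, so their values are given side by side and neither supports the other.

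The count of 19 over the whole span was 5 without DP replicate 1, 8 without DP replicate 2, 8 without CD8SP replicate 1 (7 of the 19, and Uqcr11) and 5 without CD8SP replicate 2. The share of all genes called also fell without each of these arrays. The share of respiratory chain genes called then lay below it, except without DP replicate 2, where the shares were near each other. With the actin covariate 10 respiratory chain genes rose and 1 fell (12.9% called, beside 18.8% of all genes). After median centring 5 rose and 2 fell (8.24%, beside 19.2%), and without the intensity trend 6 rose and 1 fell (8.24%, beside 15.9%). The calls of Atp5e, Ndufaf4 and Ndufaf6 were kept in every alternative in which these genes were tested, and that of Atp5g1 in all but the mean of all probes. Whole-span calls of Ndufv1, Uqcrq, Ndufa4 and Atp5l were lost without either DP array or either CD8SP array. Those of Ndufa10, Atp5g2 and Cox8a were each lost without DP replicate 1 and without CD8SP replicate 1, among other settings. That of Ndufa12 was lost without DP replicate 1 or CD8SP replicate 2. Ndufaf6 passed the filter through its later stages (DP mean log2 4.99). It was not tested with the filter at the 60th percentile, so that alternative could not lose its call. Likewise, Atp5e and Atp5g1 were not tested in the alternative without probes of suffix s, x or a, which could not lose their calls.

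**Figure D1:**
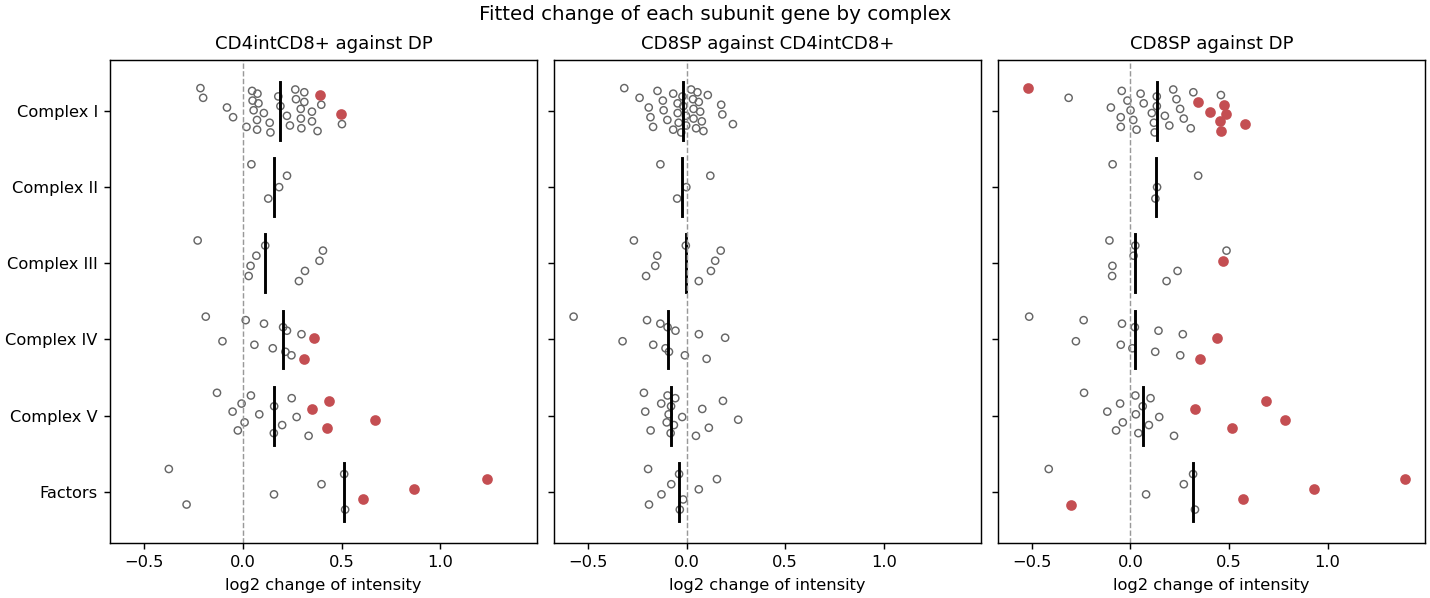
Fitted log2 change of each of the 85 genes that passed the filter (x axis) by complex (y axis) for the 3 comparisons; red filled points passed the limma test at an adjusted p under 0.05, open points did not, and black bars are medians. Red points number 11 in the left panel, 0 in the middle panel and 19 in the right panel, of which 2 lie below 0.

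In complex I, 2 of 33 genes tested rose from DP to CD4intCD8+, and 7 rose and 1 fell from DP to CD8SP. Log2 changes ran from -0.22 to 0.50 at the first step and from -0.52 to 0.58 over the whole span, with medians of 0.19 and 0.13. The share that rose was 6.06% at the first step and 21.2% over the whole span, beside 6.86% and 11.5% of all genes. With the block 10 rose at the first step, and 9 rose and 2 fell over the whole span, beside 13.3% and 16.9% of all genes called higher. Among the 6 core subunits, which carry the redox centres, Ndufv1, the flavoprotein that oxidises NADH, gave intensities of 509.5 and 547 in DP cells, 631 and 603 at the CD4intCD8+ stage and 679.6 and 721 in CD8SP. The stages did not overlap, and the rise over the whole span was 0.40 ± 0.11 on the log2 scale (SE; limma adjusted p = 0.0342). Its partner Ndufv2, an iron-sulphur subunit, was at 935 and 998 in DP cells, 1297 and 1242 at the CD4intCD8+ stage and 1156 and 1177 in CD8SP. It was highest at the intermediate stage, with a rise of 0.39 ± 0.10 at the first step (adjusted p = 0.0313) and a change of 0.27 ± 0.10 over the whole span that was not called (adjusted p = 0.0781, and 0.0333 with the block). Ndufs7, which holds the last iron-sulphur cluster before ubiquinone, was not called (0.31 ± 0.15, adjusted p = 0.179).

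Accessory subunits surround the core and are needed to assemble or stabilise it. Ndufa12 rose at both comparisons with DP, from 718 and 802 in DP to 1035 and 1112 in CD4intCD8+ (0.50 ± 0.13, adjusted p = 0.042) and 1012 and 1280.0 in CD8SP (0.58 ± 0.13, adjusted p = 0.0151). The DP arrays lay below the 4 later arrays, which overlapped with each other. Ndufa10 was at 459 and 448 in DP cells, 599 and 531 at the CD4intCD8+ stage and 686 and 592 in CD8SP, and rose by 0.49 ± 0.13 over the whole span (adjusted p = 0.0272). Ndufb2 (0.47), Ndufab1, the mitochondrial acyl carrier protein (0.46), Ndufc1 (0.46) and Ndufa9 (0.34) also rose over the whole span, with adjusted p from 0.0304 to 0.048. For each of these 4 genes both CD8SP arrays lay above both DP arrays. With each array left out in turn, the call of Ndufa9 was kept in 0 of 6 fits, that of Ndufb2 in 1, that of Ndufab1 in 2 and that of Ndufc1 in 3.

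Ndufs4, an accessory subunit of the arm that faces the matrix, went the other way. Its intensity was 1289 and 1532 in DP cells, 1265 and 1179 at the CD4intCD8+ stage and 995 and 964 in CD8SP. The 3 stages did not overlap and came in the order DP, CD4intCD8+, CD8SP. The fall over the whole span was 0.52 ± 0.11 on the log2 scale (fitted log2 change -0.52, adjusted p = 0.0116), and neither single step was called (-0.20 and -0.32, adjusted p = 0.265 and 0.376). The call was lost without DP replicate 2 or CD8SP replicate 2. Ndufv3, an accessory subunit beside the NADH site, had intensities of 1728 and 1920.1 in DP and 1388 and 1545 in CD8SP, a change of -0.31 ± 0.10 (adjusted p = 0.0537, and 0.017 with the block). Ndufb4 lay under the filter, because its only probe with a single symbol gave between 1.96 and 15.0.

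Complex II, which also serves the citric acid cycle, had 0 of 4 genes called in any comparison, while Sdhd was called over the whole span with the block (adjusted p = 0.0293). Of all genes, 11.7% were called at the first step and 19.8% over the whole span, and 30% over the whole span with the block. Sdhd, a membrane anchor, gave 574 and 561 in DP cells, 703 and 626 at the CD4intCD8+ stage and 690.0 and 754 in CD8SP, a change of 0.34 ± 0.12 over the whole span (adjusted p = 0.0675). Sdhb, the iron-sulphur subunit, was at 0.13 ± 0.09 and the anchor Sdhc at -0.09 ± 0.15, both not called. For Sdhc the 3 stages overlapped.

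In complex III, 0 of 9 genes were called at the first step (3 with the block) and 1 rose over the whole span (2 with the block), with medians of 0.11 and 0.03. The share that rose over the whole span was 11.1%, near the 11.5% of all genes. At the first step 6.86% of all genes rose. With the block, 13.3% and 16.9% of all genes rose in these comparisons. Uqcrq, a small accessory subunit, was at 500.3 and 521 in DP cells, 729 and 631 at the CD4intCD8+ stage and 699 and 717 in CD8SP, and rose by 0.47 ± 0.12 from DP to CD8SP (adjusted p = 0.0237). Both later stages lay above DP and overlapped with each other. The small subunit Uqcr10 went from 747 and 883 in DP to 1013 and 1119.6 in CD4intCD8+ and 916 and 1005 in CD8SP; its change at the first step was 0.39 ± 0.12 (adjusted p = 0.0678, and 0.00944 with the block). Uqcrb gave 2966 and 3926 in DP cells, 3828 and 4511 at the CD4intCD8+ stage and 3495 and 3406 in CD8SP, so that the 2 DP arrays differed by more than the stage means. Its change at the first step was called with the block alone (log2 0.28, limma adjusted p = 0.0434, and adjusted p = 0.18 without it). Cyc1, the cytochrome that passes electrons on to cytochrome c, was not called (0.18 ± 0.14 over the whole span, adjusted p = 0.408), and Uqcrc1, a large matrix-facing subunit, was at -0.11 ± 0.13 (adjusted p = 0.6).

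Complex IV, cytochrome c oxidase, had 2 genes higher at the first step and 2 over the whole span among 13 tested, with medians of 0.20 and 0.02. The share that rose was 15.4% in both comparisons, beside 6.86% and 11.5% of all genes. With the block, 3 rose at the first step, and 3 rose and 1 fell over the whole span. Of all genes, 13.3% and 16.9% rose with the block. Ndufa4, a subunit first named for complex I and now counted with complex IV, was at 998 and 983 in DP cells, 1290.0 and 1261 at the CD4intCD8+ stage and 1315 and 1220.3 in CD8SP. It rose by 0.36 ± 0.09 at the first step (adjusted p = 0.0395) and by 0.35 ± 0.09 over the whole span (adjusted p = 0.0301). Cox6c was at 1858 and 1966 in DP cells, 2341 and 2406 at the CD4intCD8+ stage and 2093 and 2126 in CD8SP. It rose by 0.31 ± 0.08 at the first step (adjusted p = 0.0364), the CD8SP arrays lay between the other stages, and the change over the whole span was not called (0.14, adjusted p = 0.247). The first-step calls of Ndufa4 and Cox6c were lost when any of the 6 arrays was left out.

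Cox8a, a small subunit of complex IV, had intensities of 858 and 1091 in DP cells, 1139 and 1158 at the CD4intCD8+ stage and 1252 and 1383 in CD8SP, with no overlap between the stages. It rose by 0.44 ± 0.13 over the whole span (adjusted p = 0.0391). Cox5a was at 0.27 ± 0.10 (adjusted p = 0.0825, and 0.018 with the block) and Cox5b at 0.13 ± 0.12 (adjusted p = 0.511). Cox4i1, the common form of the regulatory subunit 4, was at 2964 and 3022 in DP cells, 2876 and 2695 at the CD4intCD8+ stage and 2594 and 2482 in CD8SP. Its change of -0.24 ± 0.08 over the whole span was not called (limma adjusted p = 0.0552). It was called with the block (adjusted p = 0.0187) and with the filter at the 60th percentile. Cox6a1 (-0.04 ± 0.08), Cox6b1 (-0.05 ± 0.10) and Cox7a2 (0.02 ± 0.08) were not called over the whole span, and Cox7a2 was called at the first step with the block (0.22, adjusted p = 0.0359). Cox7c was represented by a dim probe, at 30.8 to 65.1, and was not called.

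Most tissue variants of complex IV had dim probes on these arrays. The chosen probe of Cox8c gave 102 to 139, while its other probe gave 6.47 to 28.4. Of 7 such genes 3 were tested and 0 of these were called in the 3 comparisons. Cox4i2, the hypoxia-responsive form, lay between 24.8 and 34.8, Cox7a1 of heart and muscle between 10.7 and 22.7, Cox8b of muscle and brown fat between 9.54 and 21.7, and Cox7b2 of testis between 1.11 and 9.30. These 4 lay under the filter. Cox6a2 of heart and muscle (36.8 to 50.4), Cox6b2 of testis (35.6 to 66.0) and Cox8c of testis (102 to 139) passed it. Of 5 markers of muscle and brown fat 0 passed the filter. The summed intensity of the 5 markers of muscle and brown fat was 119 and 123 in DP cells, 113 and 78.4 at the CD4intCD8+ stage and 84.0 and 88.5 in CD8SP.

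In complex V, 4 of 17 genes rose at the first step and 4 over the whole span, and 0 fell, with medians of 0.16 and 0.06. The share that rose was 23.5% in both comparisons, beside 6.86% and 11.5% of all genes. With the block, 5 rose at the first step, and 4 rose and 1 fell over the whole span. Of all genes, 13.3% and 16.9% rose with the block. Atp5e, the epsilon subunit of the central stalk, was at 763 and 786 in DP cells, 1093 and 998 at the CD4intCD8+ stage and 1319 and 1189.9 in CD8SP. The stages did not overlap and came in developmental order, with a rise of 0.43 ± 0.11 at the first step (adjusted p = 0.0326) and 0.69 ± 0.11 over the whole span (adjusted p = 0.00246; 0.000284 to 0.0217 over the alternatives). Atp5l, which encodes subunit g of the membrane part, was at 1361 and 1448 in DP and between 1749 and 1826 on the later arrays, and rose by 0.35 ± 0.09 and 0.33 ± 0.09 (adjusted p = 0.033 and 0.029). Atp5mpl, a small proteolipid of the membrane part, was at 939.6 and 933 in DP cells, 1356 and 1191 at the CD4intCD8+ stage and 1196 and 998 in CD8SP. Its first-step rise was called and that over the whole span was not (0.44 ± 0.12, adjusted p = 0.0452; 0.22 ± 0.12 over the whole span, adjusted p = 0.231). The alpha subunit gene Atp5a1 (-0.12 ± 0.08), the delta subunit gene Atp5d (-0.05 ± 0.10) and the stalk gene Atp5h (-0.24 ± 0.09, adjusted p = 0.0863) were not called over the whole span, though Atp5h was with the block (adjusted p = 0.0278).

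The c subunit of the rotor ring is encoded by 3 genes, Atp5g1, Atp5g2 and Atp5g3, whose precursors differ in the import sequence and yield the same mature protein. Atp5g1 was at 341 and 415 in DP cells, 603 and 601 at the CD4intCD8+ stage and 596 and 711 in CD8SP. The later arrays lay above both DP arrays, and the gene rose by 0.67 ± 0.14 at the first step (adjusted p = 0.0185) and 0.78 ± 0.14 over the whole span (adjusted p = 0.00537). Atp5g2 was at 572 and 675 in DP cells, 836 and 736 at the CD4intCD8+ stage and 893 and 890.3 in CD8SP, with no overlap between the stages, and rose over the whole span by 0.52 ± 0.12 (adjusted p = 0.0188). Atp5g3 was at 2737 and 2943 in DP cells, 2834 and 2875 at the CD4intCD8+ stage and 2646 and 2750.5 in CD8SP; DP and CD8SP overlapped, and its fitted change of -0.07 ± 0.08 was not called (adjusted p = 0.546). Intensities of different probes cannot be set against each other, so the share of each gene in the pool of c subunit transcripts is not known, and the difference between the 3 changes was not tested.

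**Figure D2:**
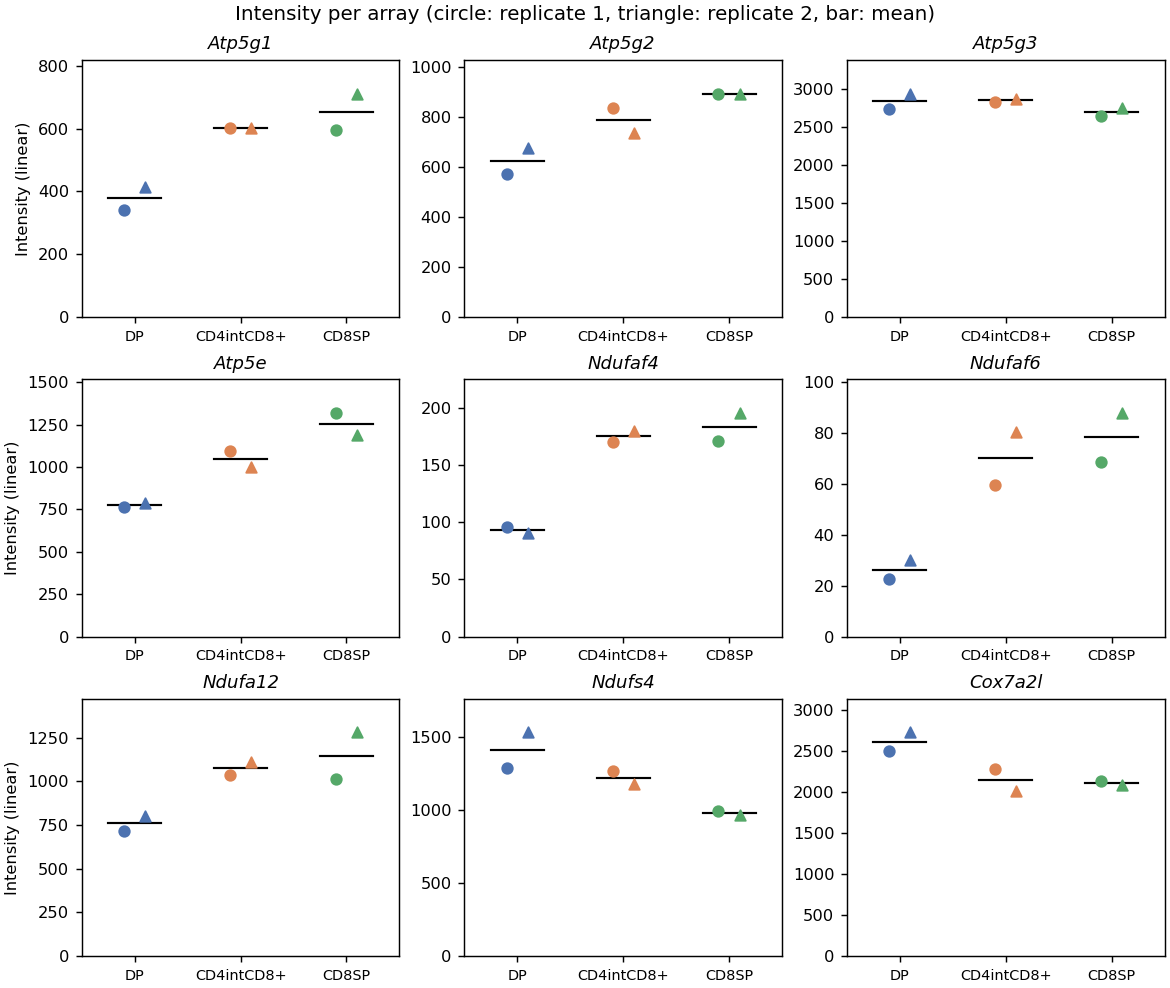
Linear intensity (y axis, from 0) on each array for 9 genes by stage (x axis); circles are replicate 1, triangles replicate 2 and bars the mean of the 2 arrays. Atp5g1, Atp5e, Ndufaf4, Ndufaf6 and Ndufa12 have both DP arrays below the 4 later arrays, Atp5g3 has overlapping DP and CD8SP arrays, and Ndufs4 and Cox7a2l have both DP arrays above the CD8SP arrays.

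The promoters of the c subunit genes, of Ndufaf4 and of Atp5e are shown because Atp5g1, Atp5g2, Ndufaf4 and Atp5e rose over the whole span while Atp5g3 was not called. Each line is the 250 bases before the annotated start (RefSeq, GRCm38.p6), 5′ to 3′ on the gene's strand, with motif matches in capitals.
Atp5g1, chr11:96075632-96075881, minus strand: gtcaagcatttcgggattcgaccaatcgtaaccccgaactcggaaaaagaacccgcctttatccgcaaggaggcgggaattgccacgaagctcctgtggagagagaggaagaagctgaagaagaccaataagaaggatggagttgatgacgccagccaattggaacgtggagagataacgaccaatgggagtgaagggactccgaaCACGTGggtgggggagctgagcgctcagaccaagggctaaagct
Atp5g2, chr15:102671048-102671297, minus strand: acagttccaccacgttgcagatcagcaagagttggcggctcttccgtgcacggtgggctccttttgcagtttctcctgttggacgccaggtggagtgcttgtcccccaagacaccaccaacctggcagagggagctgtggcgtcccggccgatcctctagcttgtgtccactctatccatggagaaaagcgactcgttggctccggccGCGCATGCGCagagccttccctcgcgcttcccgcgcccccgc
Atp5g3, chr2:73911327-73911576, minus strand: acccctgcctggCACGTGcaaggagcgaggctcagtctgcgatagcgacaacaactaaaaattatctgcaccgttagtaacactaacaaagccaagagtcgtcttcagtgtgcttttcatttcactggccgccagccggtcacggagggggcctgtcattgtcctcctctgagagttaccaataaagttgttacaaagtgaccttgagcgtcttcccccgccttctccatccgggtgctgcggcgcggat
Ndufaf4, chr4:24897833-24898082, plus strand: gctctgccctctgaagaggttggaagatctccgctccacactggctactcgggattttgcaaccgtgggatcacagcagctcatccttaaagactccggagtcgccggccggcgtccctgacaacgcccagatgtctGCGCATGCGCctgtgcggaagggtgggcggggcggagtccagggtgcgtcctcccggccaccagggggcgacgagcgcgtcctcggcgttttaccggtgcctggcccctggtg
Atp5e, chr2:174464102-174464351, minus strand: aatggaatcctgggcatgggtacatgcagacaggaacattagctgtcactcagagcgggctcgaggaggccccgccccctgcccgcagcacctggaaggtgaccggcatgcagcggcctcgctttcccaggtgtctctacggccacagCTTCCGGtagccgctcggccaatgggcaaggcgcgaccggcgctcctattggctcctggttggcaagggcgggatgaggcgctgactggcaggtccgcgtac

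The capitals mark an E-box (CACGTG, a site type bound by Myc and related factors) in Atp5g1, with its first base 44 bases before the start, and in Atp5g3, 238 bases before it. They mark a motif of NRF1, a nuclear regulator of respiratory genes, in Atp5g2 and Ndufaf4, 42 and 113 bases before the start, and an ETS motif, of the family that includes the respiratory regulator GABP, in Atp5e, 102 bases before the start. A match is a description of the letters and not evidence of binding. The NRF1 motif of Atp5g3 lies in the 50 bases after the start, which are not printed.

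The 4 motifs were searched on both strands in 300 bases around the start (250 before and 50 after), with 74 of the 91 genes matched to a promoter. The ETS motif CCGGAAG was present for 19 of the 74 genes (25.7%), beside 20.4% of 8832 tested genes with a promoter and 9.93% of all 27025 genes in the promoter table. The NRF1 motif was present for 17 (23%, beside 11.6% and 5.19%), and the YY1 motif AANATGGCG for 10 (13.5%, beside 6.14% and 2.76%). The E-box CACGTG was present for 6 (8.11%, beside 11.6% and 8.09%). Among the 15 matched genes that rose from DP to CD8SP, 3 had the ETS motif (Atp5e, Atp5l and Cox8a), 2 the NRF1 motif (Atp5g2 and Ndufaf4), 2 the YY1 motif (Ndufa9 and Ndufc1) and 3 the E-box (Atp5g1, Atp5l and Ndufv1). Among the other 55 tested genes with a promoter the numbers were 16, 14, 8 and 3.

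Of 9 assembly factors tested, 3 rose at the first step, and 3 rose and 1 fell over the whole span; with the block, 5 rose and 1 fell, and 3 rose and 2 fell. The share that rose without the block was 33.3% in both comparisons, beside 6.86% and 11.5% of all genes. With the block, 13.3% and 16.9% of all genes rose. Ndufaf6 and Ndufaf4 had the largest fitted changes of the 85 genes in both comparisons with DP. Ndufaf4, needed for the assembly of complex I, was at 95.7 and 91.1 in DP cells, 170.1 and 180.3 at the CD4intCD8+ stage and 171 and 196 in CD8SP. It rose by 0.87 ± 0.14 at the first step (adjusted p = 0.00855) and 0.93 ± 0.14 over the whole span (adjusted p = 0.00244). Its first-step call was lost without DP replicate 2 and with the actin covariate. Ndufaf6, another complex I factor, was at 22.5 and 29.9 in DP cells, 59.6 and 80.5 at the CD4intCD8+ stage and 68.8 and 87.9 in CD8SP, changes of 1.24 ± 0.22 and 1.39 ± 0.22 (adjusted p = 0.0111 and 0.00305). Its DP mean (log2 4.99) lay under the filter, so that it was tested because of its later stages, and its first-step call was lost without DP replicate 1 or 2 and with the actin covariate. Ndufaf7, a methyltransferase that modifies a core subunit of complex I, was at 57.3 and 65.6 in DP cells, 105 and 88.3 at the CD4intCD8+ stage and 94.0 and 94.0 in CD8SP, and rose by 0.61 ± 0.16 and 0.57 ± 0.16 (adjusted p = 0.0422 and 0.0366). With each array left out in turn, its first-step call was kept in 0 of 6 fits and that over the whole span in 2.

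Other factors were not called or fell. Ndufaf2 was at 131 and 182 in DP cells, 188 and 264 at the CD4intCD8+ stage and 158 and 237 in CD8SP, with the replicate 2 array above replicate 1 at each stage; its first-step change of 0.51 ± 0.24 was called with the block alone (adjusted p = 0.2, and 0.0126 with it). Ndufaf5 likewise was called at the first step with the block alone (0.52, adjusted p = 0.11 and 0.0304). Ndufaf3 was at 166 and 223 in DP and between 131 and 156 later, a change of -0.41 ± 0.18 over the whole span (adjusted p = 0.136, and 0.0346 with the block). Cox7a2l, which joins complexes III and IV into supercomplexes, was at 2496 and 2726 in DP cells, 2276 and 2009.6 at the CD4intCD8+ stage and 2138 and 2087 in CD8SP. Both later stages lay below DP, and the fall over the whole span was called (-0.30 ± 0.09, adjusted p = 0.0454). That call was lost without either DP array or either CD8SP array and in 10 of 18 alternatives in all, with log2 changes from -0.37 to -0.15. Ndufa4l2, a relative of Ndufa4 induced in hypoxia, lay under the filter, at 18.5 to 26.9.

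The arrays of a stage also differed from each other across the whole set of genes. In DP, 70 of the 85 genes (82.4%) were higher on the replicate 2 array than on replicate 1, with a median log2 difference of 0.14, while 47.7% of all genes were. The counts were 53 in CD4intCD8+ (62.4%, against 54.6% of all genes) and 59 in CD8SP (69.4%, against 53%). After each gene was centred on its mean over the 6 arrays, the median of the 85 genes was -0.18 and -0.03 for DP, 0.06 and 0.09 for the intermediate stage and -0.01 and 0.06 for CD8SP. Both DP medians thus lay lowest, and the gap between the DP arrays was larger than the gap between CD8SP 1 and DP 2. Without DP replicate 1 the median change from DP to CD8SP was 0.046, and without DP replicate 2 it was 0.21, against 0.13 with all arrays. Deviations of the same replicate number from the stage means correlated across the 85 genes at 0.44 between DP and the intermediate stage, 0.43 between DP and CD8SP and 0.41 between the later stages. Across all 10916 genes the values were 0.26, 0.21 and 0.30, and genes are not independent replicates.

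**Figure D3:**
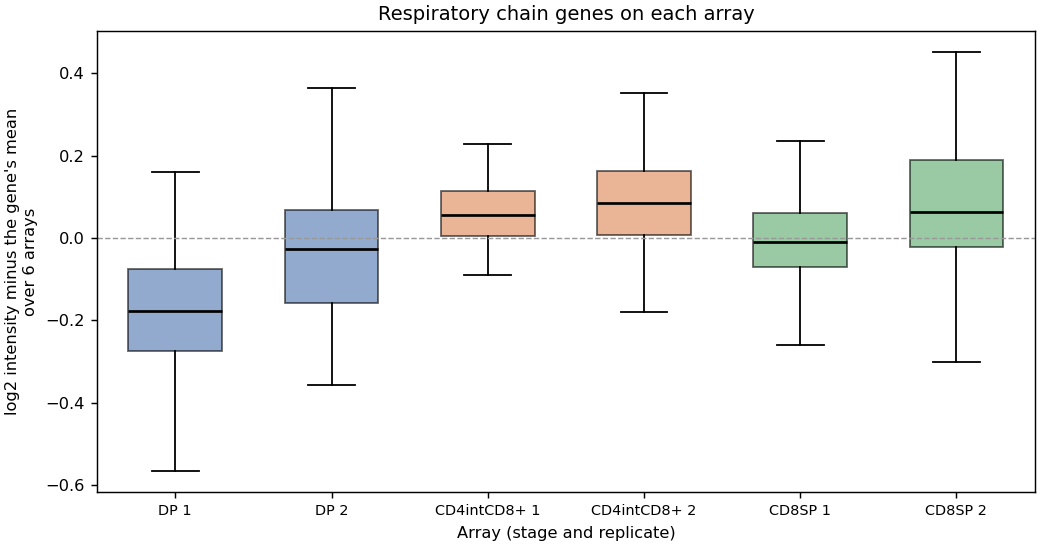
Log2 intensity minus the gene's own mean over the 6 arrays (y axis) for the 85 genes that passed the filter, by array (x axis); boxes span the quartiles, black lines are medians and whiskers reach the furthest value within 1.5 times the box height. Both DP medians (-0.18 and -0.03) lie below those of the later arrays (0.06, 0.09, -0.01 and 0.06).

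Other probes of the same genes gave a check within these RNA samples. Of the 91 genes, 45 had at least 1 further probe above the filter level, 67 probes in all, and 54 of these had the same sign as the chosen probe from DP to CD8SP. The second probe of Ndufaf4 went from 68.0 and 56.0 in DP to 128 and 146 in CD8SP, a log2 difference of 1.08 against 0.93 for the chosen probe. The 2 further bright probes of Ndufa12 gave 0.67 and 0.71 against 0.58. Those of Cox7a2l gave -0.25 and -0.27 against -0.30. For Ndufs4 the second brightest probe gave -0.42 against -0.52, while a dim probe at 26.7 to 45.8 gave -0.06. Of the 19 genes called over the whole span, 11 had a further bright probe, and only for Uqcrq did one of these point the other way (-0.48, at 18.9 to 46.6). The only other probe of Atp5g1 was at 0.20 to 9.68, so the rise of this gene rests on 1 probe. That of Atp5e does too, because its only probe with a single symbol carries the suffix s. Probes that carry the symbols of several genes were left out, which removed probes of Ndufs5, Ndufb4, Ndufa13, Ndufab1 and Ndufb2.

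**Figure D4:**
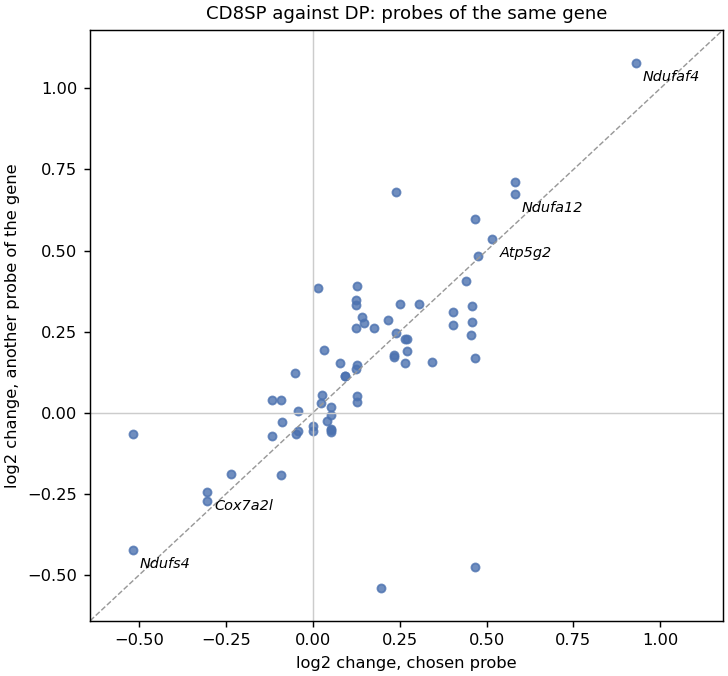
Log2 difference between CD8SP and DP for the chosen probe of a gene (x axis) and for another probe of the same gene (y axis), 67 probes of 45 genes with a mean above the filter level; the dashed line marks equal values. Of the 67 points, 54 have the same sign on both axes.

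Other mitochondrial gene lists were read from the same fit, in which 6.86% of all genes rose and 4.84% fell at the first step, and 11.5% rose and 8.35% fell over the whole span. All-gene medians were 0.01 in both comparisons. Of 16 tested genes of pyruvate dehydrogenase and the citric acid cycle, 2 rose at the first step and 2 rose and 1 fell over the whole span (medians 0.16 and 0.18); the share that rose over the whole span was near that of all genes. Fh1, fumarate hydratase, was at 514 and 466 in DP cells, 711 and 848 at the CD4intCD8+ stage and 730.0 and 797 in CD8SP (0.63 ± 0.13 over the whole span, adjusted p = 0.00907). Pdha1, a subunit of pyruvate dehydrogenase, was lower in CD8SP (log2 -0.44, adjusted p = 0.0425). Of 33 assembly factors outside the definition by symbol, 4 rose at the first step, and 5 rose and 1 (Uqcc3, log2 -0.45, adjusted p = 0.0419) fell over the whole span, with medians of 0.14 and 0.12; Nubpl, which delivers iron-sulphur clusters to complex I, went from 37.6 and 39.5 in DP to 79.7 and 103 in CD8SP (1.12, adjusted p = 0.0038), and Uqcc2, a complex III assembly factor, from 299.6 and 313 to 549 and 565 (0.85, adjusted p = 0.00134).

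Among 19 electron and nucleotide carriers and ubiquinone synthesis genes, 4 rose at the first step and 6 over the whole span, with 0 lower (medians 0.30 and 0.32). Coq2, which attaches the side chain of ubiquinone, went from 146 and 131 in DP to 226 and 269 in CD4intCD8+ and 265 and 338 in CD8SP (1.08 over the whole span, adjusted p = 0.00245). Of 20 mitochondrial import genes 4 and 7 rose and 0 fell (medians 0.14 and 0.17); Timm8a1 went from 199 and 227 in DP to 409 and 439 in CD4intCD8+ and 424 and 506 in CD8SP (1.11, adjusted p = 0.00107), and Timm10 rose by 1.41 (adjusted p = 0.00118). Of 13 regulators of mitochondrial genes 3 rose at the first step, and 4 rose and 1 fell over the whole span, with medians of -0.04 and -0.03, below those of all genes. The regulator that fell was Gabpb1, a subunit of GABP (log2 -0.62, adjusted p = 0.0178); it and Uqcc3 are named after their values were seen. Myc was at 43.8 and 27.8 in DP cells, 95.4 and 116 at the CD4intCD8+ stage and 201 and 171 in CD8SP (2.23, adjusted p = 0.000278), and Pprc1, a coactivator of respiratory genes, rose by 0.87 (adjusted p = 0.00443). The only probe matched to a subunit encoded by mitochondrial DNA, ND5, was between 1502 and 2097 and was not called.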

How the data were processed

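RNA of 6 sorted thymocyte samples was measured on 1-colour arrays from biotin-labelled cRNA, per the labels' protocols. Each array has a linear intensity for every probe in the deposited table; software, scaling and normalization are not given in the sources used here. Of its values, 3.6% lay below 0, and array medians were nearly equal, so low values give no usable fold change. Of 45037 non-control probes, 34945 had 1 gene symbol; 932 with several and 9160 with none were left out. For each gene the probe with the highest mean was used. Negative values were raised to 0 before log2(intensity + 5.84), the pseudocount being the 10th percentile of positive values; changes of dim genes are understated. Genes under the 40th percentile (log2 5.19) were left out, which kept 10916.

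All 6 arrays were fitted with limma 3.58.1 (R 4.3.3; lmFit, eBayes with intensity trend), with 1 coefficient per stage (degrees of freedom: 3 residual, 6.05 prior) and Benjamini-Hochberg adjustment over all genes in each contrast. The script was tested on simulated data in which 200 of 10916 genes changed. At an adjusted p under 0.05, 7.35% of log2 changes of 0.35 were recovered at the first step and 5.88% over the whole span. For changes of 0.7 the shares were 56.1% and 43.9%, and for changes of 1.4 they were 98.5% and 97%. Of the calls, 10.1% and 11.8% were false. A gene that was not called may thus have changed. The simulated noise was independent between arrays, whereas deviations of the same replicate number correlated in these data. Few genes changed in the simulation, beside 11.7% and 19.8% of all genes called here, so these rates need not hold for these data. Values after ± are standard errors. Replicate numbers were taken to pair the arrays, because deviations correlated above 0.1 in each pair of stages and the labels name independent experiments. These correlations come from the same values as the block fit, so they are no independent check of the pairing. Named genes are those called, the largest changes per complex and contrast, and isoform sets; Ndufb4 and Cox7b2, outside this rule, are named to account for genes under the filter. Members and lists were chosen with earlier results of these data known. Promoters come from RefSeq (GRCm38.p6), and the genes Ndufa2, Ndufb9, Ndufs1, Sdhc, Uqcrb, Uqcrc2, Uqcrq, Cyc1, Cox4i1, Cox6c, Cox4i2, Cox6a2, Cox8c, Atp5a1, Atp5mpl, Ndufaf6 and Ndufa4l2 had no match. Alternatives covered scaling, pseudocount, filter, probe choice, variance model, samples, the block, the actin ratio and each array left out.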

Additional observations from a re-analysis of the deposited data

How the results depend on the processing

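Counts of called genes from DP to CD4intCD8+ (11) were 3 after median centring, 5 without the filter, 6 with the mean of all probes, 4 without probes of suffix s, x or a, 3 without the intensity trend, 1 with the actin covariate, 27 with the replicate block, and 0 to 9 with an array left out, the lowest without DP replicate 2. From DP to CD8SP (19) they were 7, 13, 8, 9, 7, 11 and 28 in the same order, and 5 to 17 with an array left out. The median change at the first step (0.19) was 0.097 with the actin covariate and 0.123 to 0.266 with an array left out; over the whole span (0.13) it was 0.203 after quantile normalization and 0.046 to 0.211 with an array left out. At the second step the count was 0 in all 19 alternatives. Both pseudocounts and the choice of probe by linear mean left the counts at 11 and 19. From median centring to the replicate block, in the order above, first-step shares were 3.53%, 5.49%, 7.06%, 6.45%, 3.53%, 1.18% and 31.8%. Of all genes they were 11.1%, 5.69%, 7%, 9.66%, 7.34%, 3.73% and 23.5%. Over the whole span the shares were 8.24%, 14.3%, 9.41%, 14.5%, 8.24%, 12.9% and 32.9%. All-gene shares there were 19.2%, 10.4%, 14.2%, 17%, 15.9%, 18.8% and 30%. A lone array of a stage was assumed to vary like the other stages. Of 558 alternative values of the 30 calls of named genes, 354 kept the call, 203 lost it and 1 changed direction: Ndufab1 from DP to CD8SP was at -0.19 with the mean of all probes, which averages in dim probes. With the replicate block 32.9% of the 85 genes were called over the whole span, near the 30% of all genes. Groups of 2 arrays are too small for a test of outlying samples, and the number of arrays limits every value.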
